A study of Homo sapiens with 6 samples.

Results

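Aminoacyl-tRNA synthetases join each amino acid to its matching tRNA, the step that supplies the ribosome with charged tRNA. One set of nuclear genes makes the cytosolic enzymes, and a second set, whose symbols end in 2, makes the enzymes that are imported into mitochondria. GARS1 and KARS1 are exceptions, because each gene makes both the cytosolic and the mitochondrial enzyme. Several cytosolic enzymes sit together in the multisynthetase complex, which is held together by the scaffold proteins AIMP1 and AIMP2. By the fold of their active site the enzymes form class I, with a Rossmann fold, and class II, with an antiparallel beta sheet.

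The members were taken by gene symbol, and all of their transcript rows were summed per gene. They were 37 of the 31768 genes in the count table, made up of 19 cytosolic enzymes, 16 mitochondrial enzymes and the 2 scaffolds, with 542 of 153848 transcript rows. The libraries were Oxford Nanopore cDNA-PCR libraries of HMC3, a human cell line sold as microglia. There were 3 control cultures, exposed to 0 Gy, and 3 irradiated cultures, exposed to 15 Gy of X-rays, all collected after 24 h. The cultures within a group were independent by the labels, but they all come from 1 cell line.

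Library totals ran from 4870897 to 9082409 counts. Of 14 microglial marker genes, 6 had a value to analyse and 3 of those, AIF1, PTPRC and SPI1, stayed under 1 CPM (counts per 1000000 counts of a library) in every library, so the labelled cell type rested on few of its markers. CD68 was measured at 21.8 to 34.4 CPM. A list of 11 fibroblast and pericyte markers summed to 2160 to 2650 CPM in the control libraries and 2650 to 2960 CPM in the irradiated ones. Most of this was VIM, at 1794 to 2259 CPM in control and 2242 to 2614 CPM in irradiated libraries, with overlapping groups. Of the 9 genes of the list tested, 4 were higher (44.4%, beside 10.5% of all genes tested) and 2 lower (22.2%, beside 13.6%). Their part in the results below was not tested. None of the 10 genes of the list with a value was at 0 in all libraries. Across genes, log2 CPM of control replicate 3 correlated with the irradiated libraries at 0.9625 to 0.9703, against 0.9355 to 0.9514 for the other control libraries.

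The outcome depended on how libraries were put on 1 scale, so the raw share comes first. The members took 0.186, 0.181 and 0.200% of all counts in control replicates 1, 2 and 3, and 0.226, 0.215 and 0.217% in irradiated replicates 1, 2 and 3. Every irradiated share was above every control share. In these bulk libraries, fewer cells of a kind and less RNA per cell cannot be told apart. The TMM scale, which assumes that most genes keep their level, used factors of 0.788 to 0.931 for the control and 1.096 to 1.244 for the irradiated libraries. On that scale the cytosolic enzymes summed to 1852, 1936 and 1824 CPM in the control libraries and to 1548, 1694 and 1576 CPM in the irradiated libraries. Every irradiated sum was then below every control sum. The mitochondrial enzymes summed to 168, 174 and 171 CPM against 163, 146 and 140.5 CPM, also without overlap. In CPM of the library total the order turned, with cytosolic means of 1591 ± 90.5 in control and 1875 ± 37.1 in irradiated libraries (SD, n = 3 each).

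**Figure D1:**
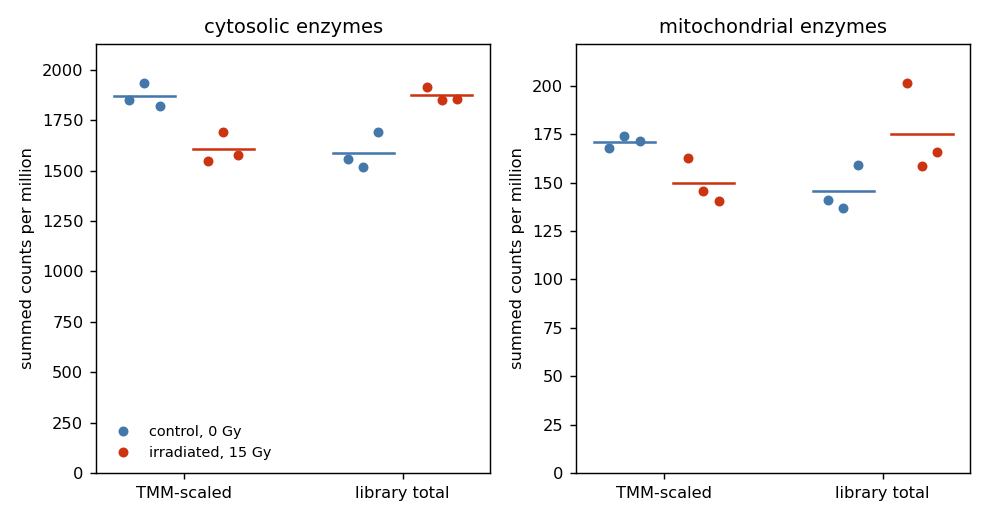
Summed level of the 19 cytosolic (left) and 16 mitochondrial (right) enzymes in each library, as CPM on the TMM scale and as CPM of the library total, with dots for libraries and lines for group means. On the TMM scale the irradiated libraries lie below the control libraries (1606 against 1871 CPM for the cytosolic enzymes), and in CPM of the library total their mean lies above (1875 against 1591).

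A change of scale moves all genes by about the same amount, so distances from the median of all genes hardly depend on it. The median log2 fold change, irradiated over control, was -0.20 for the cytosolic enzymes, -0.27 for the mitochondrial enzymes and 0.08 over all 12865 genes tested. With library totals alone these medians were 0.25, 0.19 and 0.53. The cytosolic median thus lay 0.28 below the median of all genes with either scaling, and the mitochondrial median 0.34 to 0.35 below it. The order of the compartments did depend on other settings. With an offset for transcript length the distances were -0.28 (cytosolic) and -0.20 (mitochondrial). With genes averaging under 10 CPM left out, some members among them, they were -0.18 and -0.15. All further values are on the TMM scale, and lower and higher mean an adjusted p under 0.05 in edgeR's quasi-likelihood test, adjusted by Benjamini-Hochberg over all genes tested.

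Of the 37 genes 35 passed the filter on low counts, of which 8 were lower and 1 was higher. This is 22.9% lower, beside 13.6% of all genes tested, and 2.86% higher, beside 10.5%. The lower genes were the cytosolic enzymes SARS1, FARSB, HARS1, NARS1, GARS1 and KARS1 and both scaffolds, AIMP1 and AIMP2. The higher gene was CARS2, the mitochondrial cysteinyl-tRNA synthetase, and it was also the only member to pass an absolute log2 fold change of 1, a limit passed by 6.02% of all genes. In 13 of the 35 genes all irradiated libraries lay below all control libraries (37.1%, beside 21.2% of all genes), and in 4 they lay above (11.4%, beside 21.8%). With library totals alone in place of TMM no member was lower, 6 cytosolic and 2 mitochondrial enzymes were higher, and the 8 genes named as lower had log2 fold changes from -0.43 (AIMP2) to -0.01 (GARS1). Over all genes the log2 fold change also moved with transcript length, with a median of 0.27 in genes over 3000 bases and -0.40 in genes over 500 and up to 1000 bases, and with an offset for this trend 7 cytosolic enzymes and both scaffolds were lower.

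**Figure D2:**
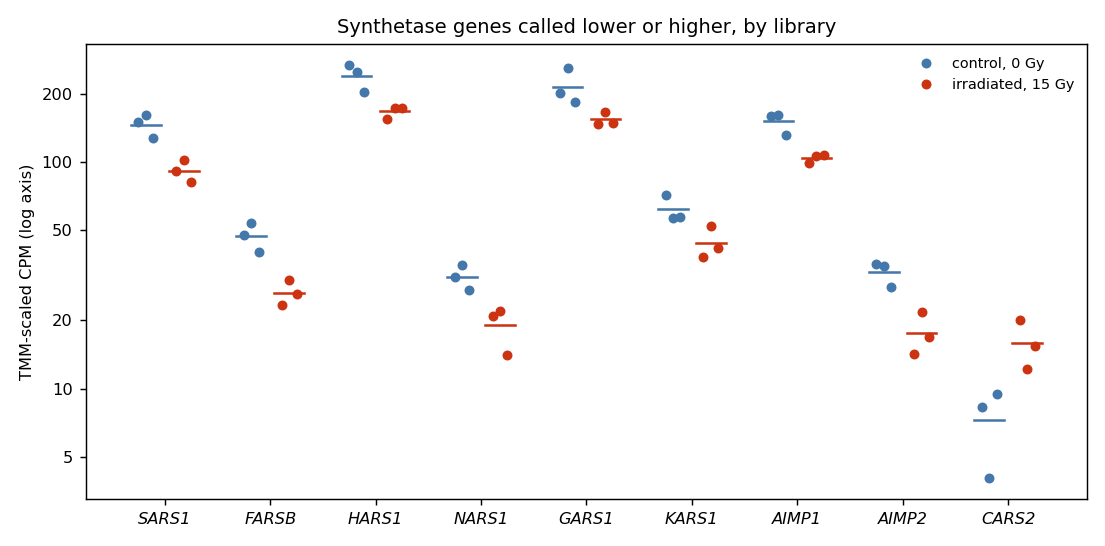
TMM-scaled CPM on a log axis for the 8 lower genes and for CARS2 in each of the 3 control and 3 irradiated libraries, with lines for group means. In all 9 genes the groups do not overlap, and CARS2 is the only one with the irradiated libraries on top.

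All 6 lower enzymes were counted in class II. FARSB, the beta subunit of a class II enzyme, was counted there beside FARSA. EPRS1, the fused glutamyl and prolyl enzyme, was counted in class I only. Of the 15 class II enzymes tested 6 were lower (40.0%, beside 13.6% of all genes tested) and none was higher (beside 10.5%), with a median log2 fold change of -0.48. Of the 18 class I enzymes tested none was lower and 1 was higher (5.56%), with a median of -0.18, beside 0.08 over all genes. At an unadjusted p under 0.05, 1 class I enzyme was lower and 3 were higher, beside 2498 lower and 2432 higher among all 12865 genes tested. DESeq2 called 1 class I enzyme lower. The class II count fell to 3 without control replicate 2 and to 3 without irradiated replicate 3. Whether the classes differ was not tested.

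**Figure D3:**
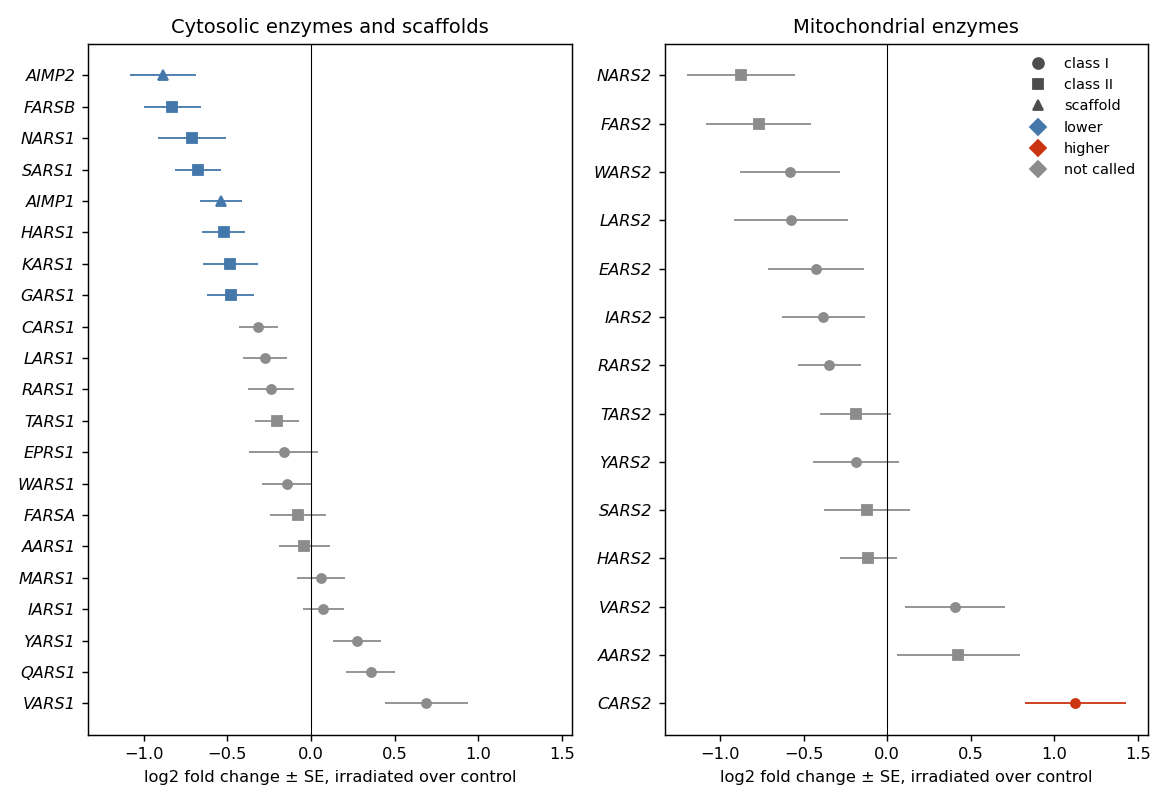
Log2 fold change with its SE for the 21 cytosolic enzymes and scaffolds (left) and the 14 mitochondrial enzymes tested (right). Circles are class I, squares class II and triangles scaffolds, blue marks genes called lower, red genes called higher and grey genes not called. The 6 blue enzymes are all squares, and CARS2 is the only red point.

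SARS1 charges serine and lies on chromosome 1 from 109213918 to 109238169 (GRCh38, GENCODE 29, plus strand). It was measured at 150.5, 161 and 127 CPM in the control libraries and at 90.9, 102 and 81.7 CPM in the irradiated ones. The highest irradiated library stayed under the lowest control library, and the log2 fold change was -0.68 ± 0.14 (SE, n = 3 a group, edgeR adjusted p = 0.00399). FARSB is the beta subunit of phenylalanyl-tRNA synthetase (chromosome 2, 222570536 to 222656337, minus strand). Its values were 47.8, 53.8 and 40.0 CPM against 23.5, 30.1 and 26.0 CPM, again without overlap, and it fell by 0.83 ± 0.17 on the log2 scale (edgeR adjusted p = 0.00468). FARSA, which makes the alpha subunit of the same enzyme, gave 48.8, 36.6 and 39.0 CPM and then 33.2, 42.6 and 41.5 CPM. These groups overlapped, with a log2 fold change of -0.08 ± 0.17 (edgeR adjusted p = 0.771), and the difference between the subunits was not tested.

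HARS1 charges histidine (chromosome 5, 140673904 to 140691862, minus strand) and gave 269, 249.3 and 203 CPM in control and 155, 174 and 173 CPM in irradiated libraries. It fell by 0.52 ± 0.13 on the log2 scale (edgeR adjusted p = 0.0115), without overlap. NARS1 charges asparagine (chromosome 18, 57600656 to 57622213, minus strand). Its levels of 31.2, 35.0 and 27.2 CPM became 20.9, 21.9 and 14.1 CPM, a log2 fold change of -0.71 ± 0.20 (edgeR adjusted p = 0.0217). The irradiated replicate 3 library was the lowest of the 6, and without it the adjusted p in edgeR was 0.105.

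Both enzymes that serve the cytosol and mitochondria were lower. GARS1, the glycyl enzyme (chromosome 7, 30594681 to 30634033, plus strand), was measured at 202.5, 260 and 184 CPM and at 148, 167 and 149 CPM after irradiation. KARS1, the lysyl enzyme of the multisynthetase complex (chromosome 16, 75627474 to 75648643, minus strand), was measured at 71.7, 56.6 and 57.1 CPM and at 38.1, 52.5 and 41.8 CPM. In both genes the groups were apart, by the least in KARS1, where irradiated replicate 2 came close to the control libraries. The log2 fold changes were -0.48 ± 0.14 for GARS1 (edgeR adjusted p = 0.0233) and -0.48 ± 0.16 for KARS1 (edgeR adjusted p = 0.0458). These calls were the least stable. The KARS1 call was also lost with no filter on low counts (adjusted p = 0.0582 in edgeR) and with genes averaging under 10 CPM left out (0.0543). Leaving out 1 library at a time, KARS1 was called in 2 of 6 fits, losing the call without control replicate 1, control replicate 2, irradiated replicate 1 or irradiated replicate 3, and GARS1 was called in 3 of 6, losing it without control replicate 2, irradiated replicate 1 or irradiated replicate 3.

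Both scaffolds of the complex were lower. AIMP1 (chromosome 4, 106315544 to 106349226, plus strand), which is also the precursor of a secreted cytokine, gave 160.5, 161 and 132 CPM in control and 99.0, 106 and 107 CPM in irradiated libraries. AIMP2 (chromosome 7, 6009245 to 6023834, plus strand) gave 35.4, 34.7 and 28.0 CPM and then 14.3, 21.8 and 17.0 CPM. Neither gene had overlapping groups. The log2 fold changes were -0.54 ± 0.13 for AIMP1 (edgeR adjusted p = 0.00827) and -0.89 ± 0.20 for AIMP2 (edgeR adjusted p = 0.00695), the most negative value among the 35 genes tested. SARS1, FARSB, AIMP1 and AIMP2 were called lower in all 6 fits that left out 1 library. HARS1 was called in 4 of 6, losing the call without control replicate 1 or irradiated replicate 1, and NARS1 in 4 of 6, losing it without control replicate 2 or irradiated replicate 3.

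Within the multisynthetase complex the enzymes other than KARS1 were not called. Of the 9 genes among the 37 whose products are in the complex 3 were lower (33.3%, beside 13.6% of all genes tested), those being KARS1 and the scaffolds, and of the 12 cytosolic enzymes outside it 5 were lower (41.7%). EPRS1, the fused glutamyl and prolyl enzyme, IARS1, LARS1, MARS1 and RARS1 had log2 fold changes from -0.27 (LARS1) to 0.08 (IARS1). QARS1, the glutaminyl enzyme, went the other way, with 81.2, 111 and 122 CPM in control and 132, 138 and 135 CPM in irradiated libraries. Its irradiated libraries were above all controls, but it was not called (log2 fold change 0.36 ± 0.15, edgeR adjusted p = 0.0878). The same held for VARS1, the valyl enzyme, at 5.12, 6.11 and 7.48 CPM against 9.63, 11.04 and 10.1 CPM (log2 fold change 0.69 ± 0.25, edgeR adjusted p = 0.0556). When genes averaging under 10 CPM were left out of the fit, QARS1 was called higher (adjusted p = 0.0165 in edgeR). Of the remaining cytosolic enzymes CARS1 had a log2 fold change of -0.32 (edgeR adjusted p = 0.0624), and AARS1, TARS1, WARS1 and YARS1 lay between -0.20 (TARS1) and 0.28 (YARS1).

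CARS2 lies on chromosome 13 from 110641412 to 110713603 (minus strand). It was measured at 8.29, 4.02 and 9.49 CPM in control and 20.02, 12.2 and 15.4 CPM in irradiated libraries. The counts behind these were 34, 27 and 80 and then 156, 85 and 125. All irradiated libraries lay above all control libraries, with a log2 fold change of 1.13 ± 0.30, or 2.18-fold (edgeR adjusted p = 0.0170). Control replicate 2 was the lowest library, and without it the value was 0.83 with an adjusted p in edgeR of 0.0645. Without irradiated replicate 1, the highest, it was 0.92 with an adjusted p in edgeR of 0.0837. CARS1, the cytosolic counterpart, was measured at 135, 148 and 145 CPM and then at 110, 121 and 113 CPM and was not called (log2 fold change -0.32 ± 0.12), and the difference between the pair was not tested.

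The other 13 mitochondrial enzymes tested were not called in either direction, and 11 of the 14 had negative log2 fold changes. NARS2, the asparaginyl enzyme, gave 10.98, 14.7 and 14.2 CPM in control and 10.01, 3.30 and 8.47 CPM in irradiated libraries. Its groups were apart, with a log2 fold change of -0.88 ± 0.32 (edgeR adjusted p = 0.0634), and DESeq2 called it lower (adjusted p = 0.0376). Irradiated replicate 2 was its lowest library, and without it the value was -0.54 with an adjusted p in edgeR of 0.161. Leaving out 1 library at a time, NARS2 was called in 1 of 6 fits, the one without irradiated replicate 1. FARS2, the phenylalanyl enzyme, gave 4.39, 9.68 and 7.95 CPM and then 4.11, 4.01 and 5.04 CPM. Its groups overlapped through control replicate 1 (log2 fold change -0.77 ± 0.32, edgeR adjusted p = 0.0897). SARS2 and HARS2, the counterparts of lower cytosolic enzymes, had log2 fold changes of -0.12 ± 0.26 and -0.11 ± 0.17 (adjusted p = 0.763 and 0.661 in edgeR). SARS2 was measured at 7.56, 6.85 and 7.12 CPM and then at 7.32, 7.02 and 5.40 CPM. HARS2 was measured at 38.5, 41.3 and 37.2 CPM and then at 37.7, 41.9 and 28.6 CPM. In both, the groups overlapped.

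EARS2, IARS2, LARS2, RARS2, TARS2, WARS2 and YARS2 had log2 fold changes from -0.58 (WARS2) to -0.19 (YARS2), and AARS2 and VARS2 had 0.43 and 0.40. MARS2 and PARS2 did not pass the filter, at 1.07 to 2.93 CPM (MARS2) and 0.60 to 1.22 CPM (PARS2) in control libraries and 0.26 to 1.00 CPM (MARS2) and 0.12 to 1.72 CPM (PARS2) in irradiated ones. The mitochondrial enzymes were measured with less precision. Their median count in a library was 52, against 589.5 for the cytosolic enzymes, and the median SE of the log2 fold change was 0.29 against 0.14. A difference of the size seen in GARS1 or KARS1 was thus harder to call in a mitochondrial enzyme at this depth.

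Per kilobase of transcript, the mitochondrial enzymes summed to 9.97, 9.26 and 10.1% of the cytosolic enzymes in control and to 11.4, 9.30 and 9.31% in irradiated libraries. The groups overlapped, and only irradiated replicate 1 stood above the controls. By counts alone the difference in this share was 0.187 percentage points, and -0.400 without that library. Among the 14 amino acids with both enzymes tested, the log2 fold change of the mitochondrial enzyme was above that of the cytosolic one in 5 and below it in 9. The spread between the 2 was largest for cysteine (CARS2 minus CARS1, 1.44). Per kilobase, the control level of the cytosolic enzyme was from 1.00 times (valine) to 82.9 times (alanine) that of its mitochondrial counterpart. Lengths came from GENCODE 29 transcripts. These held only 11.6% of the counts of AARS1, 15.1% of RARS2, 16.6% of LARS1 and 25.1% of GARS1, against 100% for others such as VARS1. The sums and ratios per kilobase, the alanine ratio among them, are therefore approximate.

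**Figure D4:**
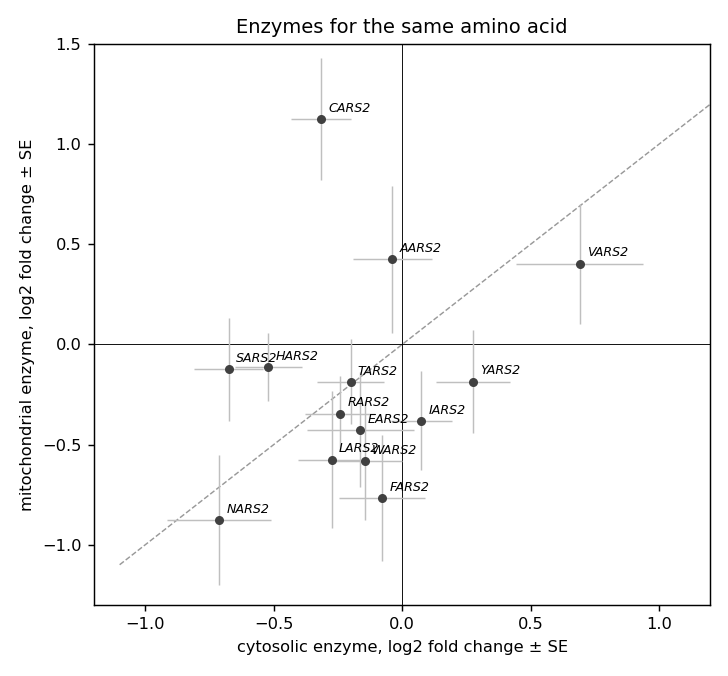
Log2 fold change of the mitochondrial enzyme against that of the cytosolic enzyme for the 14 amino acids with both tested, each with its SE and labelled by the mitochondrial gene. The dashed line marks equal change, with 5 points above it and 9 below it. CARS2 is the point farthest from the line.

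HARS1 and HARS2 are read in opposite directions from neighbouring starts, and 1 was lower while the other was not called. The difference between these genes was not tested. In RefSeq (GRCh38.p14) the HARS1 start is at 140691370 and the HARS2 start at 140691455 on chromosome 5. The 84 bases between them, with 59.5% G and C, are shown because both genes share them, as the plus strand of chr5:140691371-140691454.
HARS1 to HARS2: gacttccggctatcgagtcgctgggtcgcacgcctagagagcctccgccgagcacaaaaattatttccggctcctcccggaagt
In GENCODE 29 the spans of the genes overlap by 437 bases. Nothing read here states how the counting treated strand, so reads in that overlap cannot be told apart. In all, 6 of the 9 called genes overlapped a gene on the opposite strand, among them KARS1 with TERF2IP (858 bases), AIMP1 with TBCK (5952 bases), AIMP2 with EIF2AK1 (1591 bases) and CARS2 with ING1 (868 bases). SARS1, FARSB and NARS1 had no such neighbour.

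Several synthetase genes are known targets of ATF4, the transcription factor of the integrated stress response, which binds elements of the form TGATGNAAN together with C/EBP proteins. This motif was searched on both strands of RefSeq promoter windows, from 250 bases before to 50 after each start, with 44 windows for 32 members. AARS2, LARS1, VARS1, VARS2 and YARS1 were not analysed here. The motif was in 8 of the 44 windows (18.2%), beside 3.6% of 35116 windows in all, and 7 of the 8 genes were cytosolic enzymes. The match read TGATGCAAC in AARS1, CARS1, IARS1, MARS1 and NARS1, TGATGCAAT in TARS1, TGATGAAAT in GARS1 and TGATGGAAA in YARS2. The 4 members with the smallest adjusted p among these are shown to let the element be compared, each with 10 flanking bases on either side, read along the strand of the match with the match in capitals, and with coordinates in GRCh38.p14.
NARS1 (chr18:57621804-57621832, minus strand): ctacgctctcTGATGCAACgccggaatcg
GARS1 (chr7:30594834-30594862, minus strand): gctcggagcaTGATGAAATcgccgcgtaa
CARS1 (chr11:3057408-3057436, plus strand): tcctagaatcTGATGCAACcgccgccccg
TARS1 (chr5:33440956-33440984, minus strand): ctggaccagcTGATGCAATcgaaaggcgc
NARS1 and GARS1 were lower, and the other 6 genes with a match were not called, with log2 fold changes from -0.32 (CARS1) to 0.08 (IARS1). SARS1, FARSB, HARS1, KARS1, AIMP1 and AIMP2 were lower with no match in their windows. A match is a sequence feature and not evidence of binding. CACGTG was in 6 of the 44 windows (13.6%, beside 7.3% of all), CARS2 and AIMP2 among their genes, and CCAAT in 22 of the 44, beside 34.6% of all.

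Of 12 synthetase genes listed as ATF4 targets 3 were lower (25.0%, beside 13.6% of all genes tested) and none was higher (beside 10.5%), with a median log2 fold change of -0.18. Of 18 integrated stress response genes 7 were lower (38.9%), 1 was higher (5.56%) and 10 were not called, beside the same shares of all genes. PSAT1 and PHGDH, enzymes of serine synthesis, had log2 fold changes of -1.23 and -0.996 (adjusted p = 0.00121 and 0.00141 in edgeR). SLC3A2, the shared chain of amino acid transporters, fell by 0.79 on the log2 scale (edgeR adjusted p = 0.00184). ATF4 itself was measured at 355, 436.5 and 408 CPM in control and 285.5, 312 and 253 CPM in irradiated libraries, a log2 fold change of -0.50 ± 0.13 (edgeR adjusted p = 0.0123). EIF2AK4 (GCN2), the kinase that senses uncharged tRNA, was the gene of the list that was higher, at 26.1, 23.2 and 36.8 CPM and then 53.3, 58.2 and 62.9 CPM (log2 fold change 1.01 ± 0.18, edgeR adjusted p = 0.00264). ATF4 and EIF2AK4 each had groups that did not overlap.

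Among 13 other genes of tRNA charging 3 were lower (23.1%, beside 13.6% of all genes tested) and 1 was higher (7.69%, beside 10.5%). EEF1E1, a further scaffold of the multisynthetase complex, was measured at 94.9, 90.5 and 64.4 CPM in control and 33.4, 38.8 and 37.1 CPM in irradiated libraries, a log2 fold change of -1.19 ± 0.17 (edgeR adjusted p = 0.00132). Its groups did not overlap. The other lower genes were PPA1 (-0.77), a pyrophosphatase that removes the product of the charging reaction, and MTFMT (-0.78), which formylates the mitochondrial initiator. The higher gene was GATC (0.61), a subunit of the mitochondrial glutamyl-tRNA amidotransferase. Of 27 tested genes of tRNA transport and maturation 7 were lower (25.9%, beside the same 13.6%) and none was higher. At an unadjusted p under 0.05, 1 of them was higher, beside 2432 of all 12865 genes tested. The 3 with the smallest adjusted p were SSB (-0.67), RTCB (-0.93) and TSEN15 (-0.72), which act in tRNA binding, ligation and splicing.

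At the level of transcripts 388 isoforms of 31 members were tested, of which 57 were lower (14.7%, beside 10.7% of all transcripts) and 23 higher (5.93%, beside 8.54%). Of the 30 lower isoforms with a GENCODE 29 class, 20 were protein coding. Of the 19 higher isoforms with a class 1 was protein coding, 7 were retained introns, 6 processed transcripts and 5 targets of nonsense-mediated decay. Over all transcripts tested, 71.5% of the lower and 59.2% of the higher were protein coding, so the contrast between directions was wider among the synthetases, a difference that was not tested. Among isoforms with a class that were not called, 45.1% were protein coding in the members, beside 61.5% over all transcripts. No class was available for 27 of the 57 lower and 4 of the 23 higher isoforms. The median annotated length was 2465.5 bases for the lower and 887 bases for the higher isoforms, whereas over all transcripts tested the order was the other way, with 1373 bases for the lower and 2118 for the higher. Isoforms of 1 gene share reads, so that these counts are not independent, and the uncertainty of dividing shared reads does not enter the test. With library totals alone, 14 member isoforms were lower and 97 higher, and the shares of all transcripts on that scale are not reported here.

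The 10 isoforms with the smallest adjusted p were all lower and came from HARS1 (5), AIMP1 (2), GARS1 (2) and SARS1 (1). HARS1 ENST00000675204 fell from 33.9, 35.0 and 19.9 CPM to 9.19, 13.1 and 9.39 CPM (log2 fold change -1.47 ± 0.18, edgeR adjusted p = 2.85e-13). The size of this p-value depended on the settings. With 3 or more counts required in at least 3 libraries it was 1.45e-09 in edgeR, and with library totals alone 5.39e-06. SARS1 ENST00000234677, the main protein-coding isoform, fell from 99.2, 110 and 80.2 CPM to 42.7, 56.5 and 42.1 CPM (log2 fold change -1.03 ± 0.16, edgeR adjusted p = 2.37e-08). All irradiated values lay below all control values in both, and all 10 kept their call when any 1 library was left out. The log2 fold changes of the other 8 isoforms, HARS1 ENST00000512396, ENST00000504156, ENST00000675094 and ENST00000674523, GARS1 ENST00000675651 and ENST00000389266, and AIMP1 ENST00000684504 and ENST00000672003, ran from -1.44 to -0.99. CARS2 was spread over many isoforms at low counts. Its main protein-coding isoform ENST00000257347 was not called, at 1.77, 0.64 and 1.86 CPM and then 3.28, 1.92 and 2.50 CPM (log2 fold change 0.86 ± 0.38, edgeR adjusted p = 0.0919), and the retained-intron isoforms ENST00000375781, ENST00000540006 and ENST00000535516 were higher, with log2 fold changes of 1.08, 1.13 and 1.12.

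Isoform usage was measured as the isoform fraction, the share of its gene's counts that an isoform takes, and an isoform was called switched at an adjusted p under 0.05 with a change of at least 10 percentage points. Of the 388 isoforms 3 were switched (0.773%, beside 0.404% of all). MARS1 ENST00000262027, a protein-coding isoform of the methionyl enzyme, took 43.0, 46.0 and 32.0% of its gene in control and 20.9, 25.7 and 20.7% in irradiated libraries (edgeR adjusted p = 0.0105). QARS1 ENST00000306125, also protein coding, took 39.0, 34.5 and 28.2% and then 19.0, 22.6 and 18.9% (edgeR adjusted p = 0.0250). RARS1 ENST00000520013, annotated as a target of nonsense-mediated decay, took 25.6, 21.3 and 29.2% and then 38.0, 35.3 and 39.7% (edgeR adjusted p = 0.0367). In each the groups did not overlap, and the coding form lost share in MARS1 and QARS1 while neither gene was called in its total level. With any 1 library left out, the change stayed between -22.1 and -15.1 percentage points for MARS1 (-17.9 with all libraries), between -16.6 and -11.2 for QARS1 (-13.8) and between 10.3 and 14.2 for RARS1 (12.3). The calls were less stable than these sizes. Leaving out 1 library at a time, MARS1 was called in 3, QARS1 in 2 and RARS1 in 1 of 6 fits, and without control replicate 1, irradiated replicate 1 or irradiated replicate 3 none of them was. Without control replicate 2 the QARS1 and RARS1 calls were also lost, and without irradiated replicate 2 the RARS1 call. SARS1 ENST00000468588, a processed transcript, stood just under the limit with 6.00, 5.37 and 10.2% and then 18.8, 14.5 and 17.3% (edgeR adjusted p = 3.25e-05), while the main coding isoform of SARS1 went from 62.6 to 50.2% of the gene without a call (edgeR adjusted p = 0.392), although limma called it switched (adjusted p = 0.0142).

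**Figure D5:**
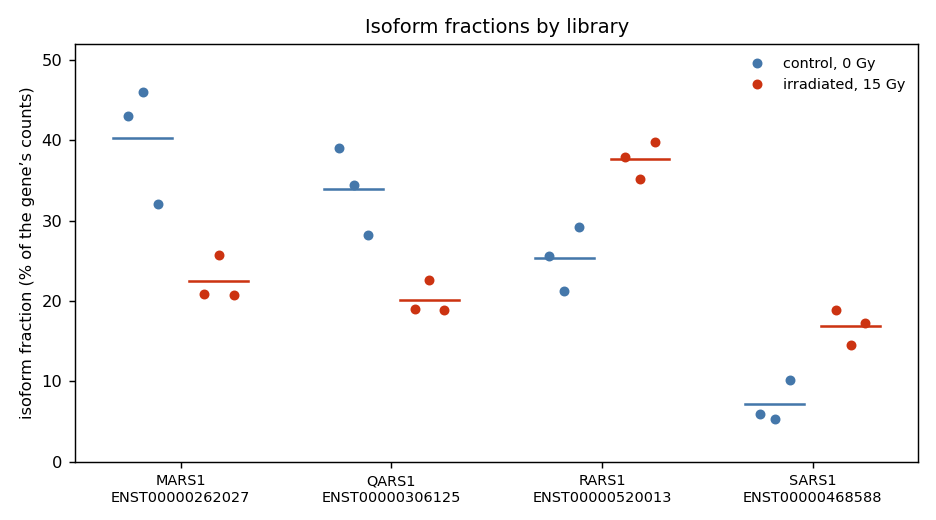
Isoform fraction, in percent of the gene's counts, of the 3 switched isoforms and of SARS1 ENST00000468588 in each control and irradiated library, with lines for group means. The MARS1 and QARS1 coding isoforms are lower and the RARS1 and SARS1 isoforms higher in all 3 irradiated libraries, with the closest gap between groups for SARS1.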

How the data were processed

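The authors sequenced cDNA-PCR libraries of 3 control and 3 irradiated HMC3 cultures, and according to the study's methods aligned them with minimap2, assembled transcripts with StringTie2, annotated them with GffCompare and quantified them with Salmon. The deposited values are estimated counts per transcript, as whole numbers, and are not normalized. The submitters' processing notes name GRCh38. Versions, annotation release, strand setting and any collapsing of molecular identifiers are unknown here.

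All rows of a gene were summed. The 12865 genes that reached 10 counts in 3 or more libraries were scaled by TMM and tested with edgeR 4.0.16 in R 4.3.3 (quasi-likelihood, robust, group only). P-values were adjusted by Benjamini-Hochberg across these genes. The SE is the absolute log2 fold change over the root of F. For transcripts and usage (diffSpliceDGE), the study's own filters left 74843 transcripts (a count of 3 or more somewhere) of 11118 genes with 2 or more of them. Gene models and lengths came from GENCODE 29, promoter windows from RefSeq. The gene-level test was checked on simulated counts. Alternatives were DESeq2 1.42.0, limma 3.58.1, other scalings and filters, a length offset, the replicate number as a block and leaving out each library. Gene-level p-values measure the spread between cultures of 1 line. Transcript-level p-values rest largely on a spread pooled over all transcripts. A small one therefore does not measure how far that isoform itself varied between cultures.

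All 37 members are named. Values per library are given for called members and their counterparts in the other compartment, and of other lists the 3 genes with the smallest adjusted p are named. QARS1, VARS1, ATF4, EIF2AK4, GATC, the CARS2 isoforms and the HARS1 to HARS2 stretch were added after their values were seen. The members and lists were chosen with earlier results of these data known. Some further genes of tRNA charging are not reported here.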

Additional observations from a re-analysis of the deposited data

How the results depend on the processing

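With library totals alone in place of TMM, the lower counts were 0 for cytosolic enzymes, 0 for scaffolds and 0 for class II enzymes, the higher counts were 6 for cytosolic and 2 for mitochondrial enzymes, AARS1 turned to 0.42 (edgeR adjusted p = 0.0454), 14 member transcripts were lower and 97 higher, and 1 isoform was switched. The shares of all genes and transcripts called with library totals are not reported here. Mitochondrial enzymes lower numbered 1 (NARS2) with RLE factors, with no filter on low counts, with the filter of the study's methods and with DESeq2. That filter left AIMP2 and FARSB untested, so 1 scaffold was lower. Class I enzymes lower numbered 1 (CARS1) with RLE factors and DESeq2 and 2 (CARS1 and LARS1) with the length offset, where GARS1 lost its call. KARS1 lost its call with no filter on low counts and with genes averaging under 10 CPM left out. With genes averaging under 10 CPM left out, 2 cytosolic enzymes were higher (QARS1 and YARS1). No cytosolic enzyme passed a log2 fold change of 1 (0 lower). DESeq2 called 5 member transcripts higher, limma gave 6 switched isoforms and counts divided by length 6. The causes of these changes were not tested, apart from the filter. Leaving out 1 library gave 3 to 7 cytosolic enzymes lower and 0 to 3 higher, 0 to 1 mitochondrial enzymes lower and 0 to 1 higher, 3 to 6 class II and 0 to 1 class I enzymes lower, 30 to 71 member transcripts lower and 7 to 41 higher, 0 to 4 switched isoforms and a change of -0.400 to 0.561 percentage points in the mitochondrial share. The fewest lower cytosolic enzymes (3) came without control replicate 2, irradiated replicate 1 or irradiated replicate 3. No member called on the TMM scale changed direction in any of these fits.

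The correlations below showed no clear pairing of the cultures by replicate number, but with 3 libraries a group they cannot settle it. Deviations from the group means correlated at -0.043, 0.296 and 0.103 within numbers 1, 2 and 3, and control replicate 1 correlated best with irradiated replicate 2 (0.080). With a replicate block 6 cytosolic enzymes were lower and 1 higher (QARS1), 1 mitochondrial enzyme was lower (NARS2) and 1 higher, 7 class II and 0 class I enzymes were lower, 61 member transcripts were lower and 25 higher, and 3 isoforms were switched.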
